A study of Mus musculus with 6 samples.

Results

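Wnt proteins are secreted, lipid-modified signalling ligands, and the RNA levels of 10 of the 19 mouse Wnt genes are described here in embryonic stem cells (ESC) with normal or reduced Srrm2. The 10 genes (Wnt3, Wnt4, Wnt5b, Wnt6, Wnt7a, Wnt7b, Wnt8a, Wnt9a, Wnt10a and Wnt11) were picked by name from the 42450 genes of the deposited count table. They were picked with earlier results of the same WT and Srrm2+/- libraries known, so their differences between genotypes are given as a description, with no test. The remaining 9 Wnt genes are what that choice left of the family, and the lists of other pathway genes were also drawn up with results known. Their adjusted p-values come from the fit across all tested genes, and their counts of calls are not independent evidence about a list.

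Total RNA was sequenced from 6 libraries, 3 of WT cells and 3 of Srrm2+/- cells. WT was the male ESC line E14tg2a.4. Srrm2+/- was a single gene-trap line made in E14tg2a.4, in which a cassette in exon 1 truncates 1 allele of Srrm2, a gene for a nuclear speckle protein that takes part in splicing, and the other allele is intact. Both were kept with leukaemia inhibitory factor (LIF) in serum-free ESGRO medium before collection, and the replicates of each were thawed from batches frozen at different passages. The WT batches were frozen at later passages than the Srrm2+/- batches, so that genotype, clone and passage cannot be told apart in any value below. The RNA came from whole cultures, in which fewer cells that express a gene and less RNA per cell cannot be told apart.

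A Wnt ligand is palmitoylated by Porcn in the endoplasmic reticulum and carried to the cell surface by Wls. At the receiving cell it binds a Frizzled receptor, with Lrp5 or Lrp6 in the canonical branch, which stabilises beta-catenin and lets it act with Tcf and Lef factors on target genes, or with Ror and Ryk receptors in the branches that do not need beta-catenin. In mouse ESC, beta-catenin signalling is known to support self-renewal, and in the embryo Wnt3 is needed to form the primitive streak.

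Promoter sequences were read for the members from RefSeq tables on build GRCm38.p6, in which 7 of the 10 had an entry (Wnt3, Wnt4, Wnt5b, Wnt6, Wnt7a, Wnt9a and Wnt11). The 120 bases before the annotated start are shown for members whose level was several-fold higher in Srrm2+/- (Wnt3, Wnt7a and Wnt9a) and for members with overlapping groups (Wnt5b, Wnt6 and Wnt11), so that both kinds can be compared. They lie at chr11:103774030-103774149 (plus strand) for Wnt3, chr6:91411364-91411483 (minus strand) for Wnt7a, chr11:59306808-59306927 (plus strand) for Wnt9a, chr6:119544348-119544467 (minus strand) for Wnt5b, chr1:74771772-74771891 (plus strand) for Wnt6 and chr7:98834992-98835111 (plus strand) for Wnt11. Each is written in the direction of its gene. Capitals mark the GC box GGGCGG, the CCAAT box CCAAT, the TATA box TATAAA and the Tcf and Lef core CTTTGA, or the reverse complement of any of these. Both strands were searched, and in the stretches shown no motif overlaps one of another kind.
Wnt3: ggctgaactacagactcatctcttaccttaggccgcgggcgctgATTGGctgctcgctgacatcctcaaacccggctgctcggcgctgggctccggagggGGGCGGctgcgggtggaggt
Wnt7a: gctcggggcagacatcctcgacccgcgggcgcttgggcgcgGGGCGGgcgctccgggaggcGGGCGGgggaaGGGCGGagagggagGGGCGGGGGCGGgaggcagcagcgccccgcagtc
Wnt9a: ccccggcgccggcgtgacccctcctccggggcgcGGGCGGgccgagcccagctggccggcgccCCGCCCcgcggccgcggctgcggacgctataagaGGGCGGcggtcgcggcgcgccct
Wnt5b: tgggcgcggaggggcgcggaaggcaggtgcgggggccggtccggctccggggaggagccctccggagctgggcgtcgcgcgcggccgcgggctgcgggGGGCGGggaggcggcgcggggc
Wnt6: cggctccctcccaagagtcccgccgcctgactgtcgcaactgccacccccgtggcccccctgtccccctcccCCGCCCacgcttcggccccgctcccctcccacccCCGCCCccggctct
Wnt11: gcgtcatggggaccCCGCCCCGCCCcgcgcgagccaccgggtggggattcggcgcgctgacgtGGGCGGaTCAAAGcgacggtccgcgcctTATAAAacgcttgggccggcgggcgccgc

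These promoters were GC-rich. Over the full windows of 300 bases, GC content was 65.7% for Wnt3, 84.3% for Wnt4, 76.0% for Wnt7a and 83.3% for Wnt9a. It was 78.0%, 76.7% and 71.3% for the windows of Wnt5b, Wnt6 and Wnt11 that hold the stretches shown. The median of all 32851 promoter windows in the table was 52.7%, and 29.5% of them reached 60% GC. A GC box was present in each of these 7 windows and in 35.7% of all windows. A TATA box and a Tcf and Lef core were found in this window of Wnt11 and in none of the other 6, against 13.6% and 16.0% of all windows. A CCAAT box was found in Wnt3 only of the 7, against 37.4% of all windows. GC-rich promoters with GC boxes thus occurred both in members with separate groups and in members with overlapping groups. A match describes letters in a window, and is not a measured binding site.

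Library totals lay between 54151532 and 69933465 estimated counts. Srrm2 itself, the gene that carries the trap, averaged 95.7 ± 3.94 CPM (SD, n = 3) in the WT libraries, beside 59.3 ± 3.02 CPM in Srrm2+/-. On the log2 scale the fold change of Srrm2 was -0.69 ± 0.05 (SE, adjusted p = 2.38e-05). CPM are counts scaled to a common library size, here with the TMM factors of edgeR. The stem cell marker Pou5f1 reached 847 ± 16.3 CPM in WT cells, beside 824 ± 11.7 CPM in the Srrm2+/- cells (log2 fold change -0.04 ± 0.04, adjusted p = 0.485). Of 18905 genes that passed the filter on low counts, 25.3% were past an adjusted p of 0.05 between WT and Srrm2+/-, 13.6% higher in Srrm2+/- and 11.7% lower. The 3 Srrm2+/- libraries were all above the 3 WT libraries in CPM for 21.4% of these genes, and all below for 20.0%.

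The Wnt genes were transcribed at low levels in both genotypes, and 5 of them were several-fold higher in Srrm2+/-. These were Wnt3, Wnt4, Wnt7a, Wnt7b and Wnt9a. For each of the 5, every Srrm2+/- library was above every WT library. Wnt5b, Wnt6, Wnt8a and Wnt11 overlapped between genotypes. Wnt10a was near the limit of detection. Of the 9 members that passed the filter on low counts, 5 were past the threshold in the higher direction and 0 in the lower, where 25.3% of all tested genes were past it in either direction. Since the members were picked with this contrast known, nothing is read from that difference. In the lower direction no member was past an unadjusted p of 0.05 in edgeR, nor was any called by DESeq2 or limma voom. The median log2 fold change of the 9 was 2.03. This median and the lack of lower calls follow in part from the same choice, and are given as a description. Wnt7a lay under the minimum count of the filter in every WT library, so it was tested only through its Srrm2+/- counts. Wnt3 lay under it in WT replicate 1 and could not have passed on its WT counts alone. This limits what the place of these genes among the rises can show.

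**Figure D1:**
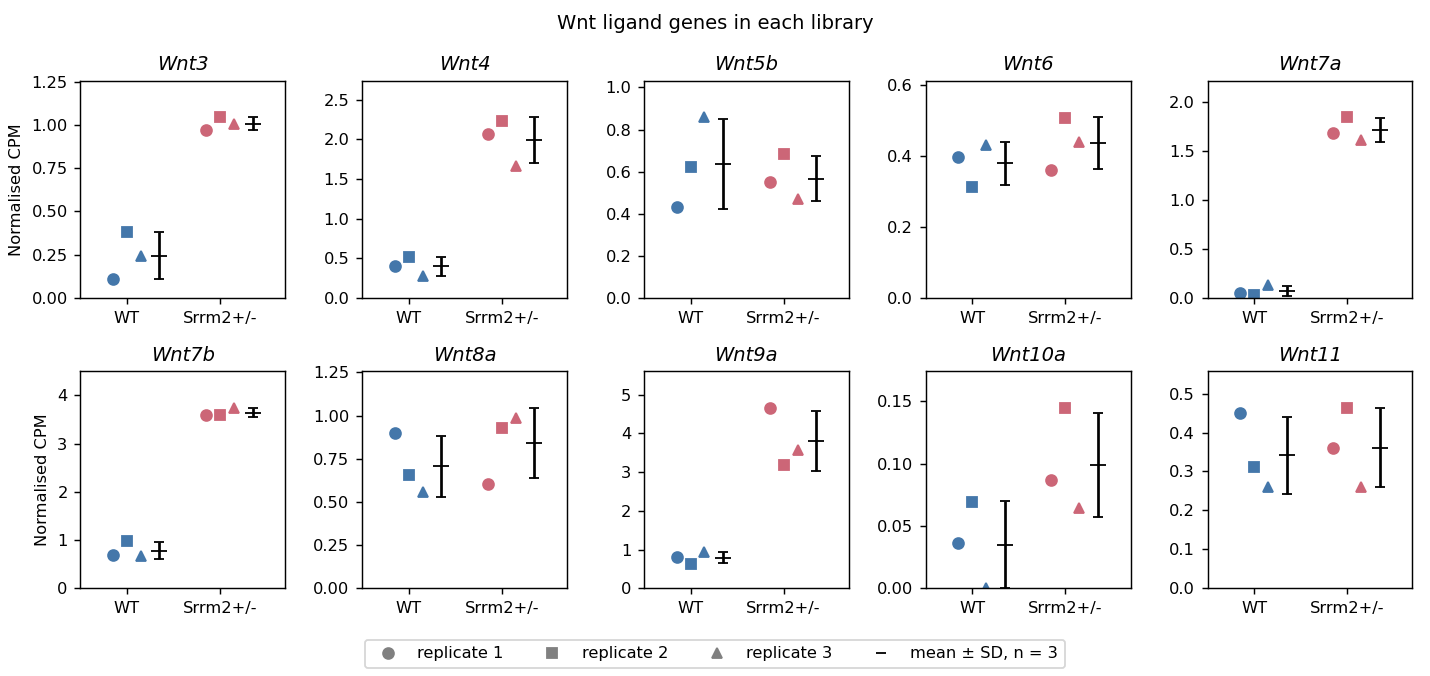
Normalised CPM (vertical axis, from 0, with its own scale in each panel) of the 10 Wnt genes in the 3 WT and the 3 Srrm2+/- libraries, with a symbol for each replicate and the mean ± SD beside it. The genotypes are apart for Wnt3, Wnt4, Wnt7a, Wnt7b and Wnt9a and overlap for Wnt5b, Wnt6, Wnt8a, Wnt10a and Wnt11.

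Wnt7a (chromosome 6, 91363981 to 91411363, minus strand), a ligand best known for its part in brain vessels, limb and synapses, had the lowest WT level per kilobase of the 5 and the largest log2 fold change of the members. It was read by 3, 2 and 7 estimated counts in WT replicates 1, 2 and 3, and by 116, 127 and 99 in Srrm2+/- replicates 1, 2 and 3. WT was close to background, and the 3 Srrm2+/- libraries lay within a narrow range. Its level was 0.0731 ± 0.0508 CPM in WT and 1.71 ± 0.122 in Srrm2+/- (mean ± SD over 3 libraries each, as for the other members), and the log2 fold change came to 4.53 ± 0.35 (SE). Leaving out WT replicate 3, which holds 7 of the WT counts, moved the log2 fold change to 5.21, and leaving out WT replicate 2 moved it to 4.19. Summed over libraries, Wnt7a gave 12 WT counts and 342 Srrm2+/- counts. The ratio of these sums per normalised depth was 23.8, with a 95% counting interval of 13.4 to 46.5 that covers counting error only.

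Wnt7b (chromosome 15, 85535437 to 85582473, minus strand) is the closest relative of Wnt7a, and both ligands can signal through the receptor complex of Reck and Adgra2. It had 38, 57 and 36 estimated counts in WT and 248, 248 and 231 in Srrm2+/- replicates 1 to 3. The Srrm2+/- libraries were nearly level with each other, while WT replicate 2 was the highest of its group. The means were 0.781 ± 0.178 CPM in WT and 3.64 ± 0.0891 CPM in Srrm2+/-, and the log2 fold change was 2.22 ± 0.18. Wnt7b overlaps exons of the antisense gene AU022754, and 4.82% of its 31-base words occur in that gene. AU022754 itself had 24, 46 and 25 counts in WT and 32, 34 and 24 in Srrm2+/-, with overlapping groups.

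Wnt9a (chromosome 11, 59306928 to 59333552, plus strand) is a ligand with known roles in joint formation and blood stem cells. Its counts were 45, 37 and 50 in WT and 323, 220 and 220 in Srrm2+/-. Replicate 1 stood above replicates 2 and 3 in Srrm2+/-, and even the lowest of these was several-fold above the highest WT library. The level was 0.795 ± 0.147 CPM in WT and 3.81 ± 0.768 CPM in Srrm2+/-, a log2 fold change of 2.26 ± 0.21. Among the Srrm2+/- libraries Wnt9a varied by 10.6 times the variance that counting alone gives. Wnt9a lies 16175 bases from Wnt3a, the gene for a classical canonical ligand, which had 6, 11 and 11 counts in WT and 12, 15 and 14 in Srrm2+/-.

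Wnt4 (chromosome 4, 137277489 to 137299726, plus strand), needed for kidney tubule and female gonad development, had 22, 30 and 15 counts in WT and 143, 154 and 103 in Srrm2+/-. Replicate 3 was the lowest library within each genotype. The mean was 0.398 ± 0.119 CPM in WT and 1.99 ± 0.290 CPM in Srrm2+/-, and the log2 fold change was 2.31 ± 0.25. Of its 31-base words 6.62% occur in transcripts of other genes, so a small part of its count could be shared.

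Wnt3 (chromosome 11, 103774150 to 103817957, plus strand), the ligand of the primitive streak, had 6, 22 and 13 counts in WT and 67, 72 and 62 in Srrm2+/-. The WT libraries were spread over a wide range and the Srrm2+/- libraries were close together. Means were 0.244 ± 0.136 CPM in WT and 1.01 ± 0.0380 CPM in Srrm2+/-, and the log2 fold change was 2.03 ± 0.37. Wnt3 shared no 31-base word with another gene. Leaving out 1 WT library at a time moved its log2 fold change between 1.68 without WT replicate 1 and 2.51 without WT replicate 2. Wnt9b, the gene 24328 bases away on the opposite strand, had 0, 0 and 2 counts in WT and 2, 3 and 2 in Srrm2+/-, too few to test.

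In 4 members the genotypes overlapped. Wnt8a on chromosome 18, a canonical ligand of the early embryo, had 50, 38 and 30 counts in WT and 42, 64 and 61 in Srrm2+/-. Its means were 0.706 ± 0.176 and 0.841 ± 0.205 CPM, and its log2 fold change was 0.25 ± 0.28. Srrm2+/- replicate 1 lay inside the WT range. Wnt5b (chromosome 6, 119432531 to 119544347, minus strand), which acts mainly without beta-catenin, had 24, 36 and 46 counts in WT and 38, 47 and 29 in Srrm2+/-. The means were 0.638 ± 0.214 and 0.567 ± 0.107 CPM, with a log2 fold change of -0.17 ± 0.30. The 3 Srrm2+/- libraries fell inside the WT range in CPM.

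Wnt6 (chromosome 1, 74771892 to 74785322, plus strand), an epithelial ligand, had 22, 18 and 23 counts in WT and 25, 35 and 27 in Srrm2+/-. It had means of 0.379 ± 0.0609 and 0.435 ± 0.0732 CPM and a log2 fold change of 0.20 ± 0.29. Wnt11 (chromosome 7, 98835112 to 98855195, plus strand), a ligand of cell movement in gastrulation, had 25, 18 and 14 counts in WT and 25, 32 and 16 in Srrm2+/-. Its means were 0.341 ± 0.0980 and 0.362 ± 0.102 CPM, and its log2 fold change was 0.09 ± 0.35. For Wnt5b and Wnt11 the sign of the fold change turned when a single library was left out. Without WT replicate 3 it was 0.11 for Wnt5b and -0.07 for Wnt11, and it was -0.13 for Wnt11 without Srrm2+/- replicate 2. Of the words of Wnt11, 8.02% occur in the pseudogene Gm8398, which was listed at 0 counts in all 6 libraries.

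Wnt10a (chromosome 1, 74791516 to 74804179, plus strand), a ligand of teeth and skin appendages, begins 6193 bases after the end of Wnt6 on the same strand. It was read by 2, 4 and 0 counts in WT and 6, 10 and 4 in Srrm2+/-, and did not pass the filter on low counts. The ratio of the summed counts per normalised depth was 2.78, with a 95% counting interval of 1.08 to 8.47. The neighbours Wnt6 and Wnt10a were therefore both low, and neither had separate groups.

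**Figure D2:**
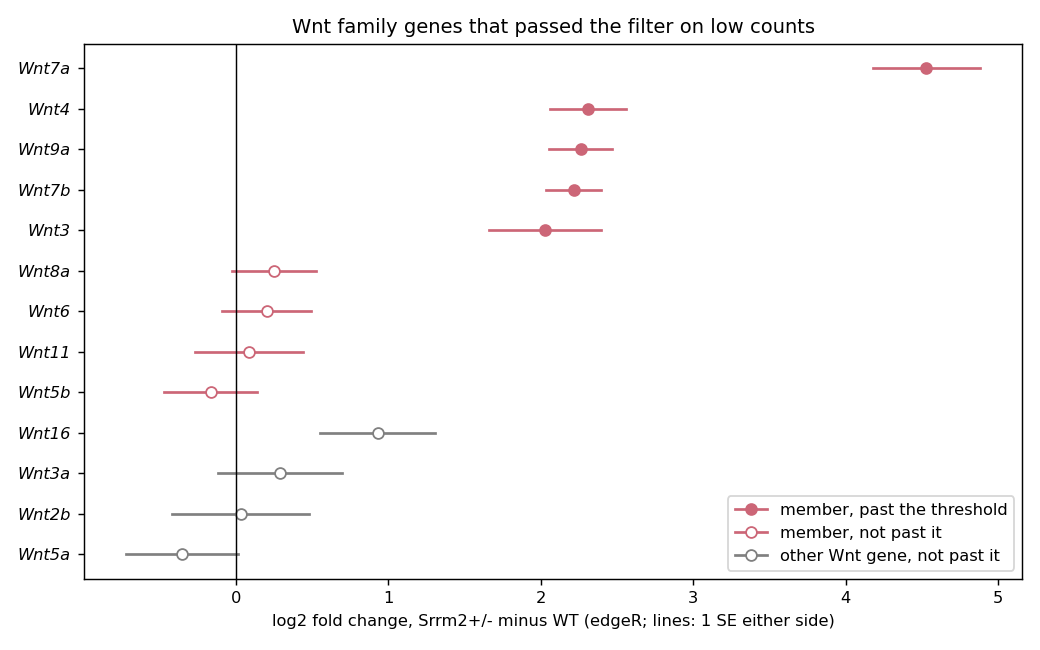
Log2 fold change between Srrm2+/- and WT (horizontal axis) of the 13 Wnt genes that passed the filter on low counts, with lines of 1 SE to either side. Filled points are past an adjusted p of 0.05 over all tested genes. The 5 filled members lie between 2.03 and 4.53, and the open ones between -0.17 and 0.25.

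The order of the members changed between genotypes. Levels were compared between genes as CPM per kilobase of merged exons. In WT the order ran from Wnt8a at 0.404 ± 0.101 CPM per kilobase through Wnt5b, Wnt9a, Wnt6, Wnt7b, Wnt4, Wnt11, Wnt3 and Wnt7a to Wnt10a at 0.0142 ± 0.0140. Neighbours in this order overlapped over the 3 WT libraries, except that Wnt7b was above Wnt4 in every one. In Srrm2+/- Wnt9a came first at 1.14 ± 0.231 CPM per kilobase, followed by Wnt7b at 0.743 ± 0.0182 and Wnt7a at 0.538 ± 0.0383. Wnt8a, Wnt4, Wnt3, Wnt5b, Wnt6, Wnt11 and Wnt10a came after them. The ranges of Wnt7a and Wnt8a, of Wnt8a and Wnt4, and of Wnt5b and Wnt6 overlapped in Srrm2+/-, and those of the other neighbours did not. The order depended in part on the length used. Per kilobase of the longest coding transcript, Wnt9a (1.15) and Wnt7b (1.07) overlapped in Srrm2+/-, and in WT Wnt7b (0.230) came before Wnt6 (0.183) and Wnt11 (0.0988) before Wnt4 (0.0950).

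Summed over the 10 members, the level was 1.51 ± 0.00305 CPM per kilobase in WT and 4.25 ± 0.131 in Srrm2+/-. Of this sum Wnt8a made up 26.8% ± 6.60 in WT and 11.4% ± 2.98 in Srrm2+/-. The share of Wnt7a was 1.53% ± 1.06 in WT and 12.7% ± 0.631 in Srrm2+/-, and that of Wnt9a was 15.8% ± 2.93 and 26.9% ± 5.25. The smaller share of Wnt8a came with a level that overlapped between genotypes. In CPM, the sum was 4.39 ± 0.132 in WT and 14.5 ± 0.579 in Srrm2+/-, a ratio of 3.29. The 10 members held 66.9% to 78.4% of all Wnt counts in the WT libraries and 88.4% to 90.8% in the Srrm2+/- libraries.

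**Figure D3:**
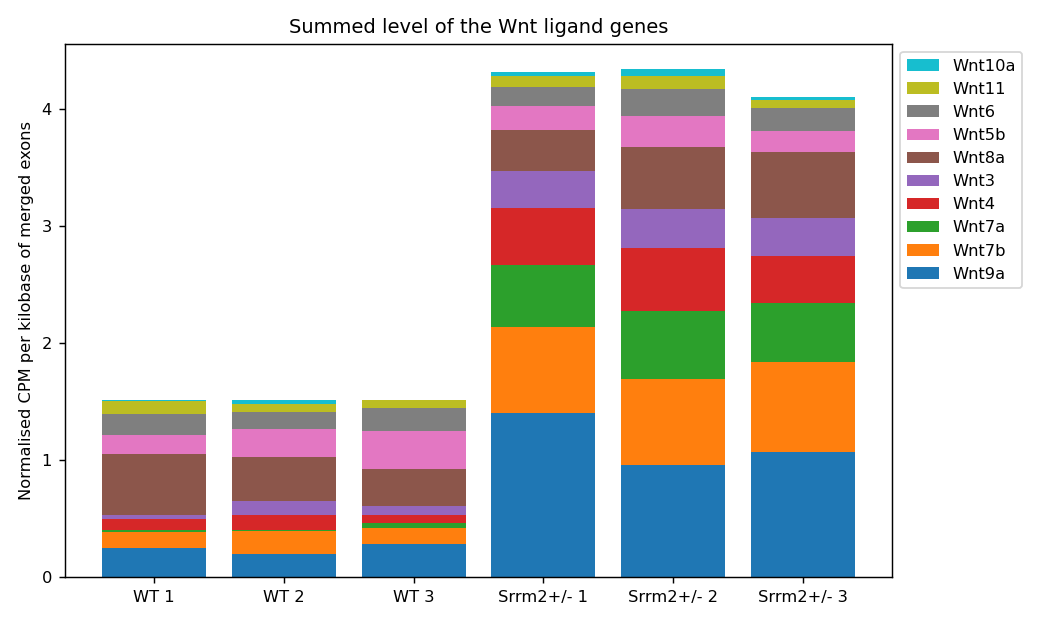
Stacked level of the 10 Wnt genes in each library, in normalised CPM per kilobase of merged exons (vertical axis, from 0). The sum lies near 1.51 in the WT libraries and between 4.10 and 4.34 in the Srrm2+/- libraries, with Wnt9a, Wnt7b, Wnt7a, Wnt4 and Wnt3 at the bottom of each bar.

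The highest library of a group was not the same replicate for every member. In WT, replicate 1 was the highest library of its group for 2 of the 9 members past the filter, replicate 2 for 3 and replicate 3 for 4. In Srrm2+/-, replicate 1 was the highest for 1, replicate 2 for 6 and replicate 3 for 2. Replicate 2 of Srrm2+/- thus ranked first most often.

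The profile of the members over the 6 libraries was summarised as their mean standardised log2 CPM. The genes other than the members with the most similar profile were Kis2 (Pearson's r = 0.997), Dusp22 (0.997), Nol7 (0.995), Ahi1 (0.995) and Cyp2j6 (0.993). The similarity was computed over 6 libraries and 12066 genes, of which 271 had an r above 0.95. Standardised values carry the pattern and not the size of a change. The log2 fold changes were 0.18 for Kis2, 0.72 for Dusp22, 0.28 for Nol7, 0.11 for Ahi1 and 0.80 for Cyp2j6. Each was smaller than that of any of the 5 raised members. These points share the genotype difference and are a description.

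Of the other 9 Wnt genes, 4 passed the filter on low counts and edgeR called 0. DESeq2 and limma voom also called 0, and 1 of the 4, Wnt16, was past an unadjusted p of 0.05. Wnt16 had 8, 19 and 9 counts in WT and 29, 27 and 26 in Srrm2+/-. Its log2 fold change was 0.93 ± 0.38 with an adjusted p of 0.108. The groups did not overlap. Without WT replicate 2 its log2 fold change was 1.39 and its adjusted p was 0.0432. The log2 fold change was 0.29 ± 0.40 for Wnt3a (adjusted p = 0.663), 0.03 ± 0.45 for Wnt2b (adjusted p = 0.971) and -0.35 ± 0.37 for Wnt5a (adjusted p = 0.547). Leaving out single libraries turned the sign for Wnt2b, which ranged from -0.29 to 0.62, and for Wnt5a, which ranged from -0.62 to 0.037.

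The 5 remaining Wnt genes were too low to test. Wnt1 had 1 count in WT replicate 1 and 0 elsewhere. Wnt2 had 1 count in WT and 2 in Srrm2+/-, and Wnt8b had 15 and 18, each summed over 3 libraries. Wnt10b had 15 counts in Srrm2+/- replicate 2 and 0 in the other 5 libraries. Wnt9b is given above beside Wnt3.

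The genes that make and release Wnt ligands moved in both directions, and their counts stand beside the 13.6% of all tested genes that were higher and the 11.7% that were lower. Of 12 such genes tested, 3 were higher and 4 were lower in Srrm2+/-. Porcn, the acyltransferase that Wnt ligands need, fell from 12.5 ± 0.757 CPM in WT to 6.52 ± 0.955 CPM (log2 fold change -0.93 ± 0.11, adjusted p = 0.000385). Wls, the carrier of acylated Wnt, rose from 4.13 ± 1.11 to 8.10 ± 0.668 CPM (0.97 ± 0.17, adjusted p = 0.00356). These 2 genes, both needed before a ligand leaves the cell, thus changed in opposite directions. The glypican gene Gpc4 rose by 1.10 on the log2 scale (adjusted p = 0.000191), and Vps29, of the retromer that recycles Wls, by 0.15 (adjusted p = 0.0290). The call of Vps29 was lost under 7 of 15 alternatives, with an adjusted p of up to 0.0965. Notum, a secreted enzyme that removes the Wnt lipid, fell by 0.87 (adjusted p = 0.0102), Tmed5 by 0.27 (adjusted p = 0.00219) and the glypican gene Gpc3 by 0.25 (adjusted p = 0.00505).

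Among 18 receptor and co-receptor genes, all tested, 7 rose and 2 fell, beside 13.6% and 11.7% of all tested genes. This list too was drawn up with results known, and nothing is read from that difference. Adgra2, which with Reck forms the co-receptor for Wnt7a and Wnt7b, had 61, 68 and 64 counts in WT and 435, 413 and 299 in Srrm2+/-. It rose from 1.16 ± 0.0507 to 5.71 ± 0.760 CPM, a log2 fold change of 2.30 ± 0.15 (adjusted p = 1.09e-05). Reck, its partner, had 415, 394 and 417 counts in WT and 478, 449 and 373 in Srrm2+/-. Its log2 fold change was -0.18 ± 0.10 (adjusted p = 0.211). The rise of Adgra2 was thus not shared by Reck within this test, and the difference between the pair was not itself tested.

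The Frizzled receptor genes Fzd1 and Fzd2 rose by 1.19 ± 0.26 (adjusted p = 0.0104) and 1.19 ± 0.13 (adjusted p = 0.000295) on the log2 scale. Ptk7, a pseudokinase co-receptor, rose by 0.66 ± 0.04 (adjusted p = 1.24e-05). Fzd10 fell by 0.89 (adjusted p = 0.000151) and Fzd5 by 0.41 (adjusted p = 0.000137). Fzd6, Fzd7 and Ryk were the other genes that rose.

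**Figure D4:**
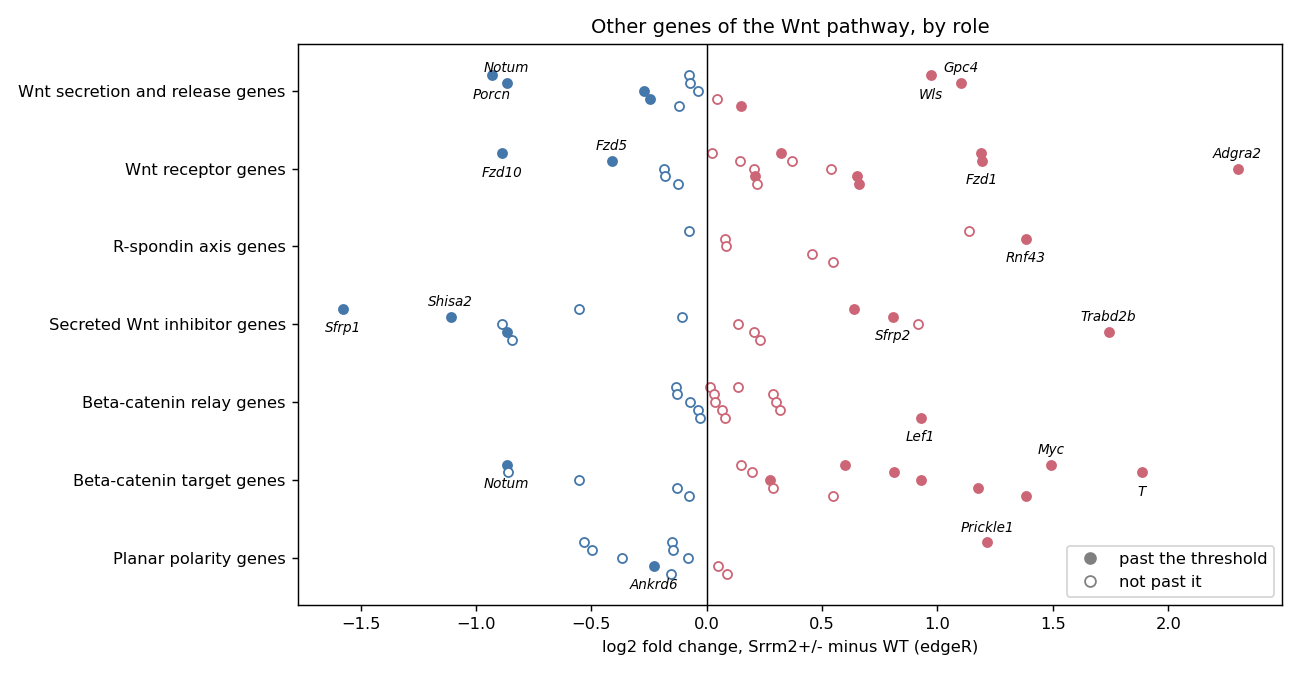
Log2 fold change between Srrm2+/- and WT (horizontal axis) of the tested genes of 7 Wnt pathway lists, a point per gene, red above 0 and blue below. Filled points are past an adjusted p of 0.05 over all tested genes and up to 2 of these are named at each end; Adgra2 lies furthest to the right at 2.30 and Sfrp1 furthest to the left at -1.58.

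Of 20 secreted and surface inhibitors of Wnt, 14 were tested, 3 rose and 3 fell, beside 13.6% and 11.7% of all tested genes. As with the other lists, nothing is read from these counts. Sfrp1, which binds Wnt ligands outside the cell, fell from 40.9 ± 2.91 to 13.7 ± 0.469 CPM (log2 fold change -1.58 ± 0.06, adjusted p = 9.65e-07). Shisa2, which holds Frizzled receptors inside the cell, fell by 1.11 (adjusted p = 4.33e-06), and Notum is given above. Sfrp2 rose by 0.81 (adjusted p = 0.00140) and Kremen1 by 0.64 (adjusted p = 0.00123). Trabd2b, a protease that cuts Wnt ligands, rose by 1.74 (adjusted p = 0.0268) from 4, 3 and 2 counts in WT to 13, 13 and 11. Its WT counts lay under the minimum count of the filter on low counts, so Trabd2b was tested only through its Srrm2+/- counts. A gene as low as this in both genotypes would not have been tested, which limits what its place among the rises can show. The call of Trabd2b was lost under 9 of 14 alternatives, with an adjusted p of up to 0.151 in DESeq2. The summed level of the 20 genes was 90.7 to 96.5 CPM in the WT libraries and 54.6 to 57.5 CPM in the Srrm2+/- libraries. This lower sum was carried mostly by Sfrp1, by Shisa2 (20.9 CPM in WT, 9.70 in Srrm2+/-) and by Notum (11.5 and 6.32). The median log2 fold change of the 14 tested genes was 0.014, so the sum does not describe the list as a whole.

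Of the R-spondin genes and their receptors, 7 of 9 were tested and edgeR called Rnf43 alone, where 25.3% of all tested genes were called. Past an unadjusted p of 0.05 in edgeR were 2 genes in the higher direction (Rnf43 and Rspo3) and 0 in the lower. DESeq2 and limma voom each called 0 lower. Rspo3 had 4, 7 and 7 counts in WT and 19, 16 and 13 in Srrm2+/-. Its log2 fold change was 1.14 ± 0.41 (adjusted p = 0.0764). The WT counts of Rspo3 lay under the minimum count of the filter, so it was tested only through its Srrm2+/- counts. Rnf43 encodes a ligase that removes Frizzled from the surface and rose by 1.38 ± 0.38 (adjusted p = 0.0262). This call was lost when any of WT replicates 1 and 2 or Srrm2+/- replicates 1 and 2 was left out (adjusted p = 0.0554 to 0.0994). Rspo4 had 1, 1 and 0 counts in WT and 10, 10 and 4 in Srrm2+/- and was not tested.

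Of 15 genes of the beta-catenin relay, Lef1 rose by 0.93 ± 0.14 (adjusted p = 0.00140). The other 14, Ctnnb1, Apc and Gsk3b among them, were not called, where 25.3% of all tested genes were called. Past an unadjusted p of 0.05 in edgeR were 3 genes in the higher direction (Lef1, Tcf7 and Tcf7l1) and 0 in the lower. Of all 18905 tested genes, 6881 were past it in either direction. For 5 of the 15 every Srrm2+/- library was above every WT library, and for 0 every one was below. The shares of all tested genes were 21.4% and 20.0%, and nothing is read from these counts. In the lower direction DESeq2 and limma voom called 0. The log2 fold change of Ctnnb1, the gene for beta-catenin, was 0.07 ± 0.04 (adjusted p = 0.282).

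Among 20 genes known as beta-catenin targets, 17 were tested, 8 rose and 1 fell, beside 13.6% and 11.7% of all tested genes. Since the list was drawn up with results known, nothing is read from that difference. T, which encodes Brachyury of the primitive streak, rose from 0.886 ± 0.267 to 3.29 ± 0.531 CPM (log2 fold change 1.89 ± 0.24, adjusted p = 0.000513). Myc rose by 1.49 ± 0.13 (adjusted p = 5.42e-05) and Sp8 by 1.18 ± 0.24 (adjusted p = 0.00656). Rnf43, Lef1, Sp5, Nkd2 and Ccnd1 made up the rest, and Notum was the gene that fell. Axin2, the feedback gene most used as a readout of the pathway, had 323, 350 and 334 counts in WT and 369, 362 and 368 in Srrm2+/-. Its log2 fold change was -0.13 ± 0.10 (adjusted p = 0.378), with a 95% interval of -0.35 to 0.09. Of 12 planar polarity genes 11 were tested. Prickle1 rose by 1.22 (adjusted p = 0.000274) and Ankrd6 fell by 0.23 (adjusted p = 0.0149). These were the calls among the 11, where 25.3% of all tested genes were called.

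Marker lists of ESC and of other cell types were read beside the Wnt genes. Summed levels were apart between genotypes for some lists and overlapped for others. The counts of calls in these lists stand beside the 13.6% of all tested genes that were higher and the 11.7% that were lower. Embryonic stem cell markers summed to 3077 to 3199 CPM in WT and 2553 to 2676 CPM in Srrm2+/-, with 1 of 8 higher and 4 lower. Primitive streak and mesoderm markers summed to 3.60 to 4.60 CPM and 6.33 to 7.00 CPM, with 2 of 6 tested higher, and surface epithelium markers to 301 to 335 CPM and 628 to 652 CPM, with 4 of 5 tested higher. Fibroblast markers summed to 4.32 to 4.55 CPM and 8.02 to 11.9 CPM, with 5 of 8 tested higher. Of these 5, Twist2 and Postn lay under the minimum count of the filter in every WT library, and Col1a2 in WT replicate 1. None of them could have passed on WT counts alone, which limits what their place among the rises can show. Neural markers (92.4 to 96.7 and 65.1 to 70.6 CPM) had 2 of 4 tested lower, and endothelial markers (94.6 to 97.8 and 70.7 to 75.8 CPM) had 2 of 6 tested higher and 2 lower. The sums of trophoblast markers (27.4 to 30.3 and 26.6 to 29.2 CPM) and of primitive endoderm markers (51.3 to 64.0 and 51.4 to 58.7 CPM) overlapped, with 2 of 6 and 2 of 8 tested higher and 1 lower in each. Each sum is carried by a few genes. In the surface epithelium list Krt8 rose from 8.73 CPM in WT to 126 in Srrm2+/- and Krt18 from 9.21 to 127. Cdh1 rose from 265 to 328 CPM and Grhl2 from 26.7 to 49.5, and Grhl3 was not called (7.54 and 6.78). Krt5, Krt14, Krt15, Trp63 and Epcam of this list were too low to test. Krt14 was the highest of these 5 in WT, at 0.157 CPM beside 0.113 in Srrm2+/-. In the primitive endoderm list Lama1 fell from 53.9 to 34.6 CPM while Col4a1 rose from 1.71 to 18.1 CPM, and in the endothelial list Pecam1 (88.8 CPM in WT) fell while Kdr rose by 3.34 on the log2 scale. Kdr had 9, 3 and 5 counts in WT and 78, 71 and 62 in Srrm2+/-. It was tested only through the Srrm2+/- counts, since the WT counts lay under the minimum of the filter. Erg of the endothelial list and Tpbpa of the trophoblast list were at 0 counts in all libraries. The part of these markers in the values of the Wnt genes was not tested.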

How the data were processed

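Total RNA from 3 WT and 3 Srrm2+/- cultures was made into stranded libraries and sequenced as paired ends. The authors pseudo-aligned reads with kallisto 0.46.1 (version per the submitters' processing notes) to the GENCODE M24 mouse transcriptome and deposited estimated counts per gene, without normalisation. The strand setting is not given in the sources used here. Reads that fit several transcripts are split between them by this program, and overlapping genes can therefore exchange counts.

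Estimated counts were rounded to whole numbers. Symbols, positions and exon lengths came from GENCODE M21 on the same build (GRCm38, counted from 1), which matched 42156 of 42450 identifiers. Genes passing filterByExpr (minimum count 10, minimum total 15) were fitted with edgeR 4.0.16 in R 4.3.3 (TMM, glmQLFit, glmQLFTest, two-sided, genotype only) over all 6 libraries. A gene could pass this filter on the counts of either genotype alone. Calls were made where the p adjusted by Benjamini-Hochberg over the 18905 tested genes was under 0.05. The SE is the log2 fold change divided by the square root of F. Levels per gene are TMM-scaled CPM, and per length CPM per kilobase of merged exons. Shared words are 31-base sequences found in annotated transcripts of another gene on either strand.

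The members and the gene lists were chosen with earlier results of these data known. All Wnt genes are named. Of each other list, up to 4 called genes with the largest change in each direction are named or counted, plus Axin2, Porcn, Wls, Reck, Adgra2, Srrm2 and Pou5f1. Ctnnb1, Apc, Gsk3b, Tcf7, Tcf7l1, Rspo4, Lama1, Col4a1, Pecam1, Kdr and the remaining called genes were named after their values were seen. So were Krt5, Krt14, Krt15, Trp63, Epcam, Grhl3 and Rspo3. The most similar genes were the 5 tested genes outside the members with the highest r whose mean log2 CPM reached 1. Intervals on count ratios are exact and cover counting error only. Nothing in the labels pairs WT and Srrm2+/- replicates by number. Within groups, every pair of libraries differed by at least 15.0 times the counting variance, so all 6 were kept as separate replicates. The alternatives were RLE and upper quartile scaling, DESeq2 1.42.0, limma 3.58.1 (voom), other filters, a replicate block, removal of short RNA genes, stricter call rules, and leaving out each library. The model scripts were tested on simulated data.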

Additional observations from a re-analysis of the deposited data

How the results depend on the processing

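The Wnt genes Wnt3, Wnt4, Wnt7a, Wnt7b and Wnt9a were past the threshold in the higher direction under each alternative that tested them. Their log2 fold changes ranged over the alternatives from 1.68 to 2.51 for Wnt3, 2.12 to 2.55 for Wnt4, 4.19 to 5.21 for Wnt7a (the highest without WT replicate 3), 2.12 to 2.42 for Wnt7b and 2.09 to 2.39 for Wnt9a. The filter that required 1 CPM in every library of a group did not test Wnt3, whose lowest Srrm2+/- library was at 0.968 CPM, and left 4 members called. Of 130 values of members under alternatives, 127 kept their direction and side of the threshold and 3 turned sign. These were 0.11 for Wnt5b and -0.07 for Wnt11 without WT replicate 3, and -0.13 for Wnt11 without Srrm2+/- replicate 2. Among the other Wnt genes, Wnt5a turned to 0.04 without WT replicate 1, and Wnt2b to -0.16, -0.22 and -0.29 without WT replicate 2, WT replicate 3 and Srrm2+/- replicate 1. Over all such fits Wnt5b ranged from -0.38 to 0.11, Wnt11 from -0.13 to 0.34, Wnt2b from -0.29 to 0.62 and Wnt5a from -0.62 to 0.037. The turned values were smaller than their SE. The cause was not tested.

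Leaving out 1 library at a time gave 3515 to 4122 genes called of all tested, 5 to 5 members, 0 to 1 other Wnt genes, 6 to 7 secretion genes, 9 to 9 receptors, 0 to 1 R-spondin axis genes, 5 to 6 inhibitors, 1 to 2 relay genes, 7 to 9 targets and 1 to 3 planar polarity genes. Calls of Trabd2b, Vps29 and Rnf43 were lost under 9, 7 and 6 alternatives. The single other Wnt gene was Wnt16 without WT replicate 2. At an adjusted p under 0.01, 2779 genes, 0 R-spondin axis genes and 1 planar polarity gene were called. When calls also had to differ by 1 or more on the log2 scale, 1153 genes of all tested, 5 members, 1 secretion gene, 3 receptors, 3 inhibitors, 0 relay genes, 4 targets and 1 planar polarity gene were called. The filter at 1 CPM called 0 R-spondin axis genes, with 2 tested.

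With the replicate number as a block, 4166 genes of all tested, 5 members and 0 R-spondin axis genes were called. Deviations of same-numbered libraries from their group means correlated at -0.03 for each number. No pairing by number was seen, but libraries handled together with little shared effect would give the same values. Per kilobase of the longest coding transcript, in place of merged exons, Wnt7b was at 0.230 in WT and 1.07 in Srrm2+/-, which changed its place in the order. Members with 12 to 132 WT counts in all limit the precision of their fold changes, and Wnt10a could not be tested at this depth. All p-values rest on a single Srrm2+/- line.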
